A study of Homo sapiens with 8 samples.

Results

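SYT11, SYP, PRRT2, DAB1, HID1 and EPN2 are 6 genes of synaptic vesicles, neurons and membrane traffic, among the 63677 genes counted in human T-cell acute lymphoblastic leukaemia (T-ALL) cells. They were picked by symbol because their transcripts were higher, from low levels, after treatment with ACBI-1. The choice rested on the measured values of these same libraries, so their changes in MOLT-4, and those in the authors' deposited tables, are given as a description without a test.

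The study compared DND-41 and MOLT-4, both established T-ALL lines, each exposed for 24 h to ACBI-1 at 100 nM or to its solvent, DMSO. The compound is a PROTAC: it joins the bromodomains of SMARCA2, SMARCA4 and PBRM1, proteins of the BAF and PBAF chromatin remodelling complexes, to the ubiquitin ligase VHL, and they are then degraded. The 4 groups were MOLT-4 with ACBI-1, MOLT-4 with DMSO, DND-41 labelled ACBI-1 and DND-41 labelled DMSO, with 2 libraries each. The labels name no edited genotype and do not say whether the libraries came from separate cultures, so p-values measure only the spread between libraries, which may be technical. Each result stands for a single cell line, grown in culture.

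Library totals ran from 21308737 to 22067644 counts, with 21636 to 23243 genes counted at least once. All 12 T-cell markers examined were at 1 CPM (counts scaled to the library total by the TMM method, in the usual unit of that name) or more in every group. Their summed level in MOLT-4 was 2987 to 3084 CPM with ACBI-1 and 3529 to 3543 CPM with DMSO, and in DND-41 3740 to 3871 CPM under the ACBI-1 label and 3948 to 3994 CPM under the DMSO label. The DND-41 sums joined opposite splits by library number. CD7 was at 1293 and 1281 CPM in the libraries numbered 1, and at 227 and 262 CPM in those numbered 2. CD3G, named after its values were seen, split the other way, at a log2 fold change of 1.33 in the authors' deposited table. Among 22 neuron markers, 13 had no count in MOLT-4 with ACBI-1 and 13 had none with DMSO. The dendritic protein MAP2, the growth cone protein GAP43 and the migration protein DCX, named after their values were seen, were at 0 in both. The summed neuron markers were 40.5 to 41.6 CPM with ACBI-1 and 39.0 to 41.2 CPM with DMSO in MOLT-4, ranges that overlapped. This sum joined opposite changes. MAPT averaged 13.9 CPM with ACBI-1 and 2.97 CPM with DMSO, and INA 3.40 CPM with ACBI-1 and 15.1 CPM with DMSO. NEFH, named after its values were seen, averaged 22.7 CPM with ACBI-1 and 21.6 CPM with DMSO. All groups thus carried T-cell transcripts, and 3 of the 22 neuron markers reached 1 CPM in each MOLT-4 group. Of the 12 T-cell markers 3 rose, 8 fell and 1 did not pass the edgeR test in MOLT-4, where 28.2% of all tested genes were called higher and 30.2% lower, and the median log2 fold change of the markers was -0.58. The part of either marker list in the changes of the 6 genes was not tested. In bulk RNA, more cells with a transcript cannot be told apart from more transcript per cell.

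The DND-41 labels disagreed between the deposited files. The DND-41 fold changes in the authors' deposited table matched the ratio of libraries numbered 2 to libraries numbered 1, within 0.001 on the log2 scale, in 100% of 27069 genes. The ratio of the treatments named on the libraries matched in 0.1515% of genes. The corresponding MOLT-4 fold changes in the authors' deposited table matched the labelled treatments in 100% of 27777 genes. Which of both DND-41 assignments holds the treatments as given was not stated, and the direction of its deposited table could not be checked. DND-41 values of the 6 genes are therefore given library by library, tested as labelled where counts allowed, and set beside the authors' deposited values.

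Synaptic vesicles store transmitter at nerve endings and release it when SNARE proteins, guided by synaptotagmins and other release factors, fuse them with the plasma membrane. Their membrane is retrieved by endocytosis, much of it through clathrin coats. Hormones and neuropeptides travel instead in dense-core vesicles, which bud from the trans-Golgi network, and reelin is a secreted signal that guides migrating neurons. Many neuronal genes are held silent in other tissues by the repressor REST, and lymphocytes use related machinery for their own secretion and endocytosis.

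In MOLT-4 each of the 6 genes had both ACBI-1 libraries above both DMSO libraries, as did 39.2% of the 14618 genes tested. All 6 also had a log2 fold change of at least 2, which 1.22% of tested genes reached, and 5 of the 6 reached 3, as did 0.383%. These counts follow from the way the genes were chosen, and nothing is read from them. SYP, at 2.48, was the lowest of the 6 and ranked 98th among all tested genes by log2 fold change, while PRRT2, at 4.43, was the highest and ranked 8th. Without DMSO replicate 1 of MOLT-4, DAB1 (4.09) stood above PRRT2 (3.97). The median tested gene was at 21.5 CPM with ACBI-1 and 21.3 CPM with DMSO. With DMSO all 6 genes lay below 4 CPM. With ACBI-1 only SYT11 exceeded the median gene.

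SYP encodes synaptophysin, an abundant membrane protein of small synaptic vesicles that pathologists use as a marker of neurons and neuroendocrine tumours. In MOLT-4 it had 385 and 410 counts with ACBI-1, against 71 and 62 with DMSO. These were levels of 17.7 ± 0.703 CPM with ACBI-1 and 3.16 ± 0.303 CPM with DMSO (SD, n = 2 each), a log2 fold change of 2.48 (standard error, SE, 0.123) and a 5.60-fold difference. The groups stood well apart, with the lowest ACBI-1 library at 5.09 times the highest DMSO library.

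SYT11 encodes synaptotagmin 11, a member of the synaptotagmin family that does not bind calcium and takes part in membrane traffic. It had 845 and 783 counts with ACBI-1, against 82 and 83 with DMSO in MOLT-4. It was the most abundant of the 6 genes in both groups, at 36.2 ± 2.12 CPM with ACBI-1 and 3.92 ± 0.0326 CPM with DMSO (SD, n = 2 each). The log2 fold change was 3.21 (SE 0.0994), a 9.24-fold difference.

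PRRT2 encodes a proline-rich membrane protein of nerve endings that binds the SNARE machinery, and its loss causes a paroxysmal movement disorder. Its counts were 152 and 153 with ACBI-1, against 4 and 9 with DMSO in MOLT-4. It averaged 6.78 ± 0.000474 CPM with ACBI-1 and 0.309 ± 0.168 CPM with DMSO (SD, n = 2 each), a log2 fold change of 4.43 (SE 0.268). The SD with ACBI-1 is that of 2 nearly equal counts. Counting error alone allows 272 to 341 for their sum of 305 (95% Poisson interval). Its fold was 22.0, and the DMSO side rested on 13 counts in all.

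HID1 encodes a protein of the Golgi membrane that takes part in forming dense-core vesicles. It was counted 184 and 167 times with ACBI-1, against 9 and 12 times with DMSO in MOLT-4. The levels were 7.80 ± 0.571 CPM with ACBI-1 and 0.499 ± 0.101 CPM with DMSO (SD, n = 2 each), with a log2 fold change of 3.95 (SE 0.230). As for PRRT2, few reads stood behind the DMSO value, and its SE was larger than those of SYT11 and SYP.

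EPN2 encodes epsin 2, an adaptor that bends the membrane and helps load cargo at clathrin-coated pits. It had 342 and 268 counts with ACBI-1, against 34 and 25 with DMSO in MOLT-4. Its levels were 13.6 ± 2.39 CPM with ACBI-1 and 1.40 ± 0.303 CPM with DMSO (SD, n = 2 each). The log2 fold change was 3.27 (SE 0.170), and the groups did not overlap.

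DAB1 encodes the adaptor that is phosphorylated inside neurons when reelin binds its receptors. It had 359 and 302 counts with ACBI-1, against 34 and 18 with DMSO in MOLT-4. The means were 14.7 ± 1.86 CPM with ACBI-1 and 1.23 ± 0.537 CPM with DMSO (SD, n = 2 each), and the log2 fold change was 3.57 (SE 0.173). The DMSO libraries of DAB1 differed more from each other, relative to their mean, than those of SYT11, SYP, HID1 and EPN2, yet both lay far below the ACBI-1 libraries.

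**Figure D1:**
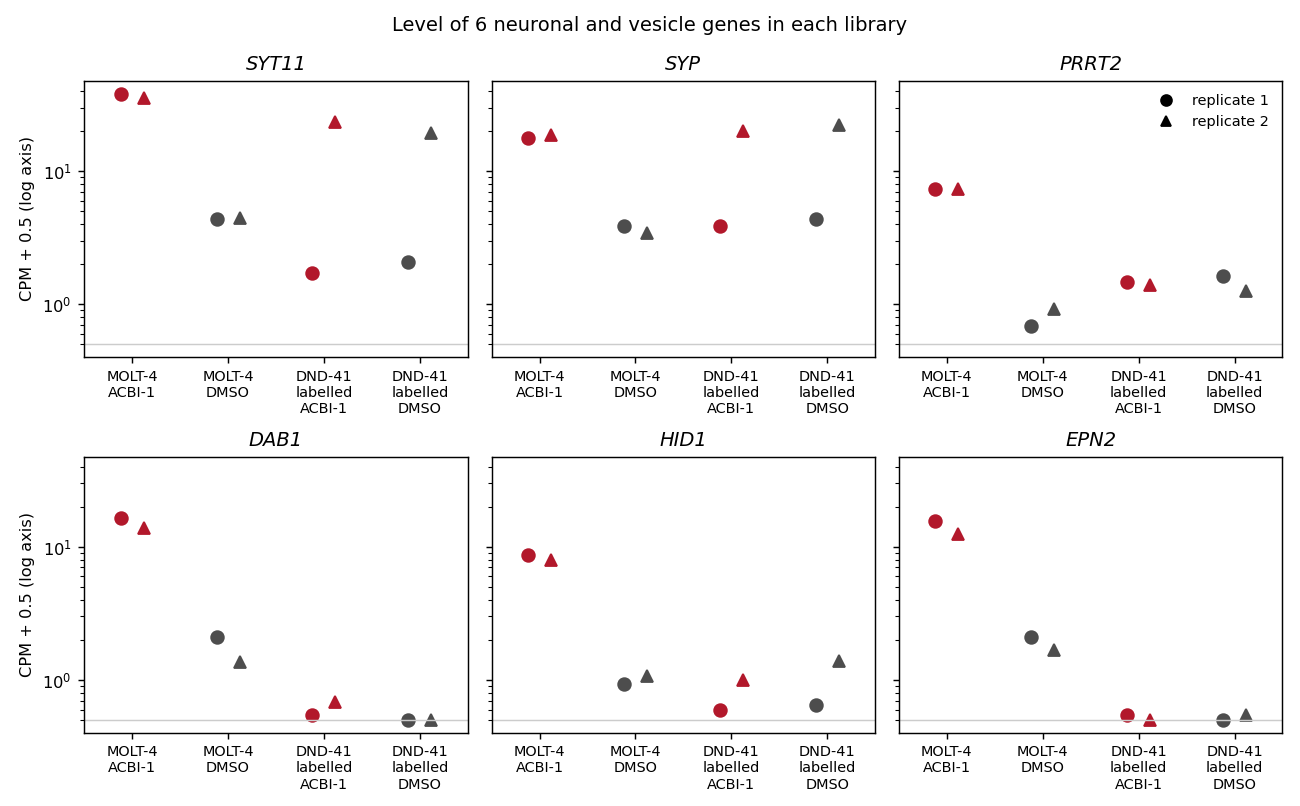
Level of each of the 6 genes in every library, as CPM + 0.5 on a log axis; circles are replicate 1, triangles replicate 2, and the grey line marks 0 CPM. In MOLT-4 both ACBI-1 points lie above both DMSO points for all 6 genes, while in DND-41 the points of SYT11 and SYP part by replicate number, at 1.21 and 22.7 CPM of SYT11 in the libraries labelled ACBI-1.

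Levels of different genes were compared per kilobase of exon (GENCODE release 29), since longer transcripts collect more reads. With ACBI-1 in MOLT-4 the order was SYT11 (6.91 ± 0.404 CPM per kilobase), SYP (3.39 ± 0.135), DAB1 (1.95 ± 0.247), PRRT2 (1.81 ± 0.000126), EPN2 (1.59 ± 0.281) and HID1 (1.26 ± 0.0922) (SD, n = 2 each). DAB1 and PRRT2, and likewise PRRT2 and EPN2, were closer to each other than the larger SD of the pair. The small SD of PRRT2 reflects 2 nearly equal counts and leaves out counting error. With DMSO the order was SYT11 (0.748 ± 0.00623 CPM per kilobase), SYP (0.605 ± 0.0581), EPN2 (0.164 ± 0.0355), DAB1 (0.164 ± 0.0712), PRRT2 (0.0822 ± 0.0447) and HID1 (0.0805 ± 0.0162). There EPN2 and DAB1, and likewise PRRT2 and HID1, were closer to each other than the larger SD of the pair. SYT11 and SYP led in both groups.

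In DND-41 no gene of 14602 (0%) passed the edgeR quasi-likelihood test of the libraries as labelled, with 37 genes (0.253%) at an unadjusted p under 0.05 and 0 genes called by DESeq2. With the replicate number as a block edgeR called 1349 genes, 777 higher and 572 lower as labelled. SYT11 had 25 and 506 counts in the libraries labelled ACBI-1, against 32 and 425 in those labelled DMSO. SYP had 69 and 432 counts in the libraries labelled ACBI-1, against 79 and 490 in those labelled DMSO. For both genes the libraries numbered 2 were high and those numbered 1 were low under either label, so the labelled groups overlapped. As labelled, the log2 fold change of SYT11 was 0.23 with an SE of 1.67 and an unadjusted edgeR p of 0.898, and that of SYP was -0.17 with an SE of 1.17 and an unadjusted edgeR p of 0.889. These SEs and p-values take in the split by number. On the log2 scale, SYT11 stands at 3.87 (SE 0.271) and SYP at 2.48 (SE 0.217) in the authors' deposited table of that line. The MOLT-4 values from the edgeR fit were 3.21 and 2.48, and a difference between the lines was not tested.

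The other 4 genes were scarce in every DND-41 library. PRRT2 had 20 and 20 counts in the libraries labelled ACBI-1, against 23 and 17 in those labelled DMSO, and so showed no split by label or by number. Its log2 fold change was -0.01 as labelled (SE 0.390, edgeR p = 0.988) and -0.37 (SE 0.640) in the authors' deposited table. HID1 had 2 and 11 counts in the libraries labelled ACBI-1, against 3 and 20 in those labelled DMSO. The libraries numbered 2 were again the higher ones, with a log2 fold change of -0.80 as labelled (SE 1.14, edgeR p = 0.521) and 2.48 (SE 1.11) in the authors' deposited table. The edgeR adjusted p of these 4 tested genes, SYT11 and SYP included, was 0.999982 each. With the replicate number as a block the edgeR adjusted p was 0.276 for SYT11, 0.354 for SYP, 0.999 for PRRT2 and 0.398 for HID1.

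DAB1 had 1 and 4 counts in the DND-41 libraries labelled ACBI-1, against 0 and 0 under the DMSO label, where a count of 0 allows up to 3 counts per library. EPN2 had 1 and 0 counts under the ACBI-1 label, against 0 and 1 under the DMSO label. Both were too scarce to be tested as labelled, and a difference was not detectable at this depth. The authors' deposited table lists a log2 fold change of 1.84 with an SE of 2.98 for DAB1 and of -0.15 with an SE of 4.18 for EPN2, errors larger than the values. A log2 fold change of at least 2 in that table was therefore held by SYT11, SYP and HID1, 3 of the 6, against 0.826% of all genes with an adjusted p there. DAB1 and EPN2 have no adjusted p there and so are not in the set behind that percentage. That table may have taken part in the choice of the genes, so nothing is read from the share of the 6.

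**Figure D2:**
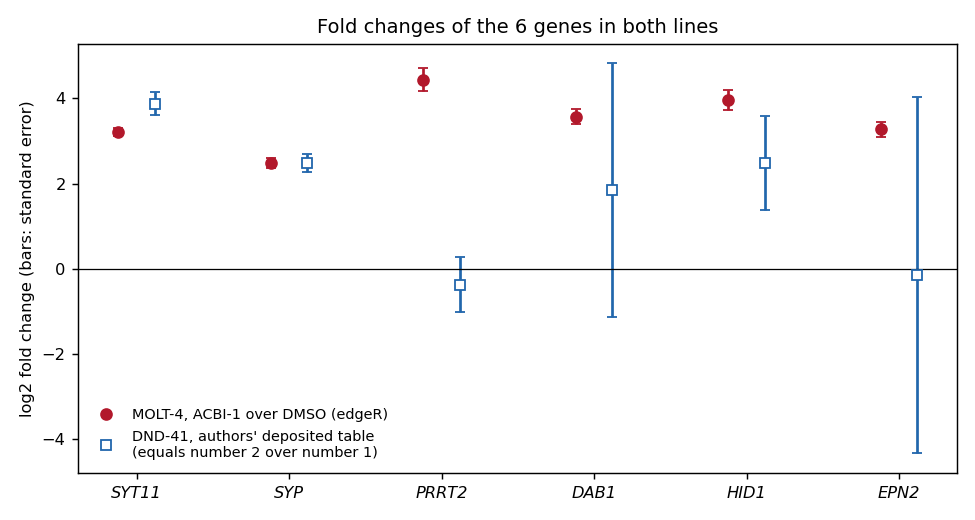
Log2 fold change of the 6 genes in MOLT-4 (filled circles, ACBI-1 over DMSO, edgeR) and in the authors' deposited DND-41 table (open squares, the ratio of the libraries numbered 2 to those numbered 1); bars are standard errors. SYT11 and SYP have narrow bars in both, at 3.21 and 3.87 for SYT11, while the DND-41 bars of PRRT2, DAB1 and EPN2 span 0.

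RefSeq promoter sequences (GRCh38.p14, 250 bases before to 50 bases after the start, written 5′ to 3′ on the gene's strand) were matched for 4 of the 6 genes. They are shown for SYT11, SYP and EPN2 because SYT11 and SYP split by library number in DND-41 while EPN2 was near 0 there, though all 3 were higher in MOLT-4 with ACBI-1. DAB1, also near 0 in DND-41, had 6 promoter entries, which are not shown. The SYT11 promoter lies at chr1:155859317-155859616 on the plus strand, that of SYP at chrX:49200144-49200443 on the minus strand and that of EPN2 at chr17:19237116-19237415 on the plus strand. Capitals mark the ETS core motif CGGAAG on either strand in SYT11 and the GC box GGGCGG on either strand in SYP and EPN2.
SYT11: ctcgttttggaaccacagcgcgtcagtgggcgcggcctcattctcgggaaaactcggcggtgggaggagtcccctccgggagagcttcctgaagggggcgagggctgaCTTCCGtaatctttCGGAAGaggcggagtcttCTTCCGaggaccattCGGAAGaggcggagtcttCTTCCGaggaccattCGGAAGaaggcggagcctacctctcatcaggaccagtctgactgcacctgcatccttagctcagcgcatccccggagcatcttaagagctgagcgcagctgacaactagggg
SYP: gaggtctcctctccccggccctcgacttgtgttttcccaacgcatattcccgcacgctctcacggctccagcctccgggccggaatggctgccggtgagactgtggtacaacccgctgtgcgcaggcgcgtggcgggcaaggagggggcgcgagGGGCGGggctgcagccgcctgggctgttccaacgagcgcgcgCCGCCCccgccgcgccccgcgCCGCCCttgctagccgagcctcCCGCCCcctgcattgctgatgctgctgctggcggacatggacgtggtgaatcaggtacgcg
EPN2: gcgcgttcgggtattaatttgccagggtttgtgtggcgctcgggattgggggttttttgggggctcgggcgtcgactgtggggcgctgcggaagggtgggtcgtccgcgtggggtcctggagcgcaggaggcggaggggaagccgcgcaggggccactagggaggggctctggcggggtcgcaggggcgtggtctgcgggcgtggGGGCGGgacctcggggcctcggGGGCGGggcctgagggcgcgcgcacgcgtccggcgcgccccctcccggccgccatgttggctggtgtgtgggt

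G and C made up 60.0% of the SYT11 window, near the median of 58.67% over 35116 promoters. The SYP and EPN2 windows lay further above that median, at 71.3% and 74.3%. The 3 windows held 22, 35 and 36 CpG dinucleotides in the order SYT11, SYP and EPN2, against a median of 14. The SYT11 window held 6 matches of CGGAAG, a number reached by 0.0456% of promoters, while at least 1 match was found in 19.5%. Most of these matches sit in a stretch of 42 bases that occurs at 2 places whose starts are 33 bases apart, so the copies overlap and those matches repeat one another; the match farthest from the start lies outside both copies. SYP held 4 matches of GGGCGG and EPN2 held 2, numbers reached by 9.06% and 26.7% of promoters. EPN2 also held 1 CGGAAG. The left and right parts of the RE1 element of REST, searched as TTCAGCACC and GGACAGC on both strands, were found in 0.376% and 6.03% of promoters and in none of these 3 windows. Of the other motifs searched on both strands, TGGGAA of RBPJ (24% of promoters) had 1 match in SYP, TGTGGT of RUNX factors (13.1%) had 1 in SYT11 and 1 in SYP, and CAGCTG of E2A and TAL1 (17.9%) had 1 in SYT11. TGACG (24.6%) had 1 match in SYT11 and TGANTCA of AP-1 (7.71%) had 1 in SYP, while AGATAA of GATA factors (10.3%) and CACGTG of MYC (7.26%) had none in the 3 windows. A match is a description of letters, not of binding.

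Of the genes that neighbour or overlap the 6 genes (GENCODE release 29), those that could be tested in MOLT-4 had smaller log2 fold changes than the 6 genes. The 6 genes were chosen for their rise, so this contrast follows largely from the choice and nothing is read from it. Beside SYT11, GON4L stood at 0.09 on the log2 fold scale (SE 0.0493, edgeR adjusted p = 0.119). RIT1, a small GTPase gene on the other side of SYT11, had 0.20 (SE 0.0679, edgeR adjusted p = 0.0106). Its call was kept in 3 of the alternative runs and lost in 6, DESeq2 (0.118) among them. Beside SYP, PRICKLE3 had -0.22 (SE 0.0997, edgeR adjusted p = 0.0536), and CACNA1F, a calcium channel gene, had 6 and 4 counts with ACBI-1, against 13 and 10 with DMSO. The 3 tested neighbours of SYT11 and SYP thus lay between -0.22 and 0.20 on the log2 fold scale.

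PRRT2 shares 365 exon bases with AC009133.1 (ENSG00000238045), an antisense gene on the opposite strand. On the same strand AC009133.6 and AC009133.5 share 1129 and 259 exon bases with PRRT2. Neither was among the genes counted, so reads from them could not be checked. The antisense gene rose to 151 and 142 counts with ACBI-1, against 93 and 84 with DMSO in MOLT-4 (log2 fold change 0.63, SE 0.146; edgeR adjusted p = 0.000271). Its counts equalled 96.1% of those of PRRT2 with ACBI-1 and 1362% with DMSO. The libraries were strand-specific per the labels, but the strand setting of the counting is not given in the sources used here, so reads of both genes cannot be told apart with certainty. MAZ, a zinc finger factor upstream of PRRT2, rose by a log2 fold change of 0.25 (edgeR adjusted p = 1.95e-07).

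OMA1, a mitochondrial protease gene that shares 257 exon bases with DAB1 on the same strand, had 691 and 702 counts with ACBI-1, against 599 and 606 with DMSO in MOLT-4 (log2 fold change 0.11, edgeR adjusted p = 0.133). It was more abundant than DAB1 in all 4 MOLT-4 libraries. C8B, on the downstream side of DAB1, and OTOP3 beside HID1 had 0 counts in all 8 libraries. CDR2L, on the upstream side of HID1, rose to 231 and 257 counts with ACBI-1, against 123 and 131 with DMSO (log2 fold change 0.85, SE 0.118, edgeR adjusted p = 5e-08). B9D1, a gene of the ciliary transition zone downstream of EPN2, rose to 346 and 345 counts with ACBI-1, against 140 and 145 with DMSO (log2 fold change 1.18, SE 0.105, edgeR adjusted p = 4.11e-13). CDR2L and B9D1 thus had the largest changes among the tested neighbours. The antisense gene AC124066.1, which shares 1660 exon bases with EPN2, had 0 counts.

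**Figure D3:**
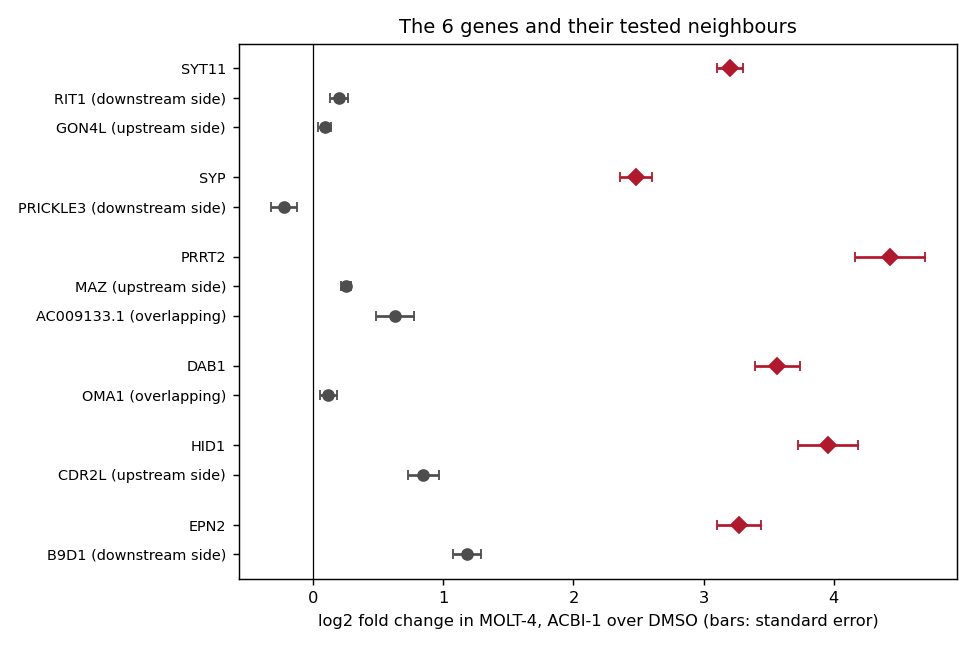
Log2 fold change in MOLT-4, ACBI-1 over DMSO, of the 6 genes (diamonds) and of their annotated neighbours or overlapping genes that could be tested (circles); bars are standard errors from edgeR. The neighbours lie between -0.22 (PRICKLE3) and 1.18 (B9D1), and the 6 genes between 2.48 (SYP) and 4.43 (PRRT2). The 6 genes were chosen for their rise, so nothing is read from the gap.

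Lists of other genes of the same processes set the 6 genes in context, with 58.4% of all genes tested in MOLT-4 called by edgeR (28.2% higher and 30.2% lower) and a median log2 fold change of 0.01 over all of them. With total counts as the scale that median was 0.119 higher, with 5804 genes called higher and 3031 called lower, and small changes hold only relative to TMM. Counts of higher and lower genes under total-count scaling are given beside each list.

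Of 29 other synaptic vesicle proteins 11 were tested, and 5 rose, 1 fell and 5 did not pass in MOLT-4 (7 and 0 under total-count scaling). The median log2 fold change was 0.14. SYNGR1, which encodes synaptogyrin 1, a vesicle protein related to synaptophysin, rose to 6.56 and 6.03 CPM with ACBI-1, against 2.37 and 1.52 CPM with DMSO (log2 fold change 1.69, edgeR adjusted p = 1.18e-10). The synaptophysin-like gene SYPL1, expressed outside neurons, rose by 0.77 (edgeR adjusted p = 3.12e-22). RAB3D, a GTPase of secretory vesicles, rose by 0.70 and SLC18A2, the vesicular monoamine transporter, by 0.64 (edgeR adjusted p = 2.64e-05 and 7.71e-06). No gene of this list other than SYP reached a log2 fold change of 2 in MOLT-4. SYNGR1 has 0.34, SYPL1 0.03, RAB3D -0.37 and SLC18A2 -0.28 on the log2 scale in the authors' deposited DND-41 table.

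Of 16 other synaptotagmins only 2 passed the filter on low counts in MOLT-4, and of these 0 rose, 1 fell and 1 did not pass (0 and 1 under total-count scaling). SYT1, the main calcium sensor of transmitter release, fell to 3 and 4 counts with ACBI-1, against 33 and 51 with DMSO (log2 fold change -3.63, SE 0.432, edgeR adjusted p = 1.12e-09). SYT1 thus moved the opposite way to SYT11. SYT15, named after its values were seen, had 0.06 (edgeR adjusted p = 0.774).

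Of 41 other genes of the vesicle release machinery 25 were tested, and 9 rose, 6 fell and 10 did not pass (16 and 5 under total-count scaling), with a median log2 fold change of 0.06. BSN, which encodes bassoon, a scaffold of the presynaptic active zone, rose to 370 and 343 counts with ACBI-1, against 76 and 74 with DMSO (log2 fold change 2.15, SE 0.122, edgeR adjusted p = 2.18e-19). In DND-41, BSN had 101 and 470 counts in the libraries labelled ACBI-1, against 88 and 304 in those labelled DMSO, the same split by number as for SYT11 and SYP. It has 1.88 (SE 0.244, adjusted p = 2.97e-13) on the log2 scale in the authors' deposited DND-41 table. PPFIA4, a liprin of the active zone, rose to 113 and 143 counts with ACBI-1, against 25 and 26 with DMSO in MOLT-4 (2.23, edgeR adjusted p = 1.58e-12). UNC13D, which primes the lytic granules of lymphocytes, fell by 1.03 and the SNARE gene SNAP29 by 0.63 on the log2 scale (edgeR adjusted p = 1.23e-26 and 1.92e-12). Among genes named after their values were seen, the SNARE gene STX3 rose by 1.89 on the log2 scale (edgeR adjusted p = 2.39e-12), while SNAP25, the SNARE of synaptic vesicle fusion, had 0 counts in all 8 libraries. PPFIA4 has 0.85 (SE 2.02), UNC13D -0.78, SNAP29 -0.38 and STX3 -0.03 in the authors' deposited DND-41 table. STX3 thus showed no such split there.

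Of 23 other dense-core vesicle genes 12 were tested, and 4 rose, 2 fell and 6 did not pass (5 and 0 under total-count scaling), with a median log2 fold change of 0.01. PTPRN2, a membrane protein of dense-core vesicles, rose by 0.62 (edgeR adjusted p = 6.49e-16), the largest change of this list beside HID1. ARL1, a GTPase of the trans-Golgi network, fell by 0.17, and VPS50 and VPS52, subunits of tethering complexes, rose by 0.19 and 0.12 on the log2 scale (edgeR adjusted p = 0.00460, 0.00949 and 0.0442). PTPRN2 has 0.08, ARL1 -0.34, VPS50 0.06 and VPS52 0.16 in the authors' deposited DND-41 table. This list had 6 calls with edgeR, 1 with DESeq2, and 2 to 3 when any 1 of the 4 MOLT-4 libraries was left out.

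Of 44 other clathrin endocytosis genes 37 were tested, and 12 rose, 11 fell and 14 did not pass (17 and 5 under total-count scaling), with a median log2 fold change of -0.02. BIN1, an amphiphysin that curves membranes, fell to 61 and 57 counts with ACBI-1, against 337 and 286 with DMSO (log2 fold change -2.49, edgeR adjusted p = 5.33e-20). HIP1R, which links clathrin coats to actin, fell by 0.80, while the adaptor subunit AP2A2 and the scaffold ITSN2 rose by 0.53 and 0.55 on the log2 scale (edgeR adjusted p of 2.36e-12 or less). BIN1 has -0.15 (SE 1.95), HIP1R -0.82, AP2A2 0.11 and ITSN2 0.37 in the authors' deposited DND-41 table. Among the other epsins, both named after their values were seen, EPN1 was at 83.0 CPM with ACBI-1 and 86.1 CPM with DMSO (log2 fold change -0.05, edgeR adjusted p = 0.373, and 0.07 under total-count scaling). EPN3 had 13 and 6 counts with ACBI-1, against 1 and 0 with DMSO, too few to be tested. Per kilobase of exon, EPN2 with ACBI-1 (1.59 ± 0.281 CPM) stayed below EPN1 (4.71 CPM).

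Of 29 other genes of the reelin and DAB1 pathway 24 were tested, and 6 rose, 7 fell and 11 did not pass (12 and 6 under total-count scaling), with a median log2 fold change of 0.00. LRP8, a receptor of reelin, fell to 925 and 1003 counts with ACBI-1, against 1573 and 1549 with DMSO (log2 fold change -0.79, edgeR adjusted p = 6.18e-17). In DND-41, LRP8 had 2876 and 1133 counts in the libraries labelled ACBI-1, against 2537 and 1100 in those labelled DMSO, a split by number, and -1.43 (SE 0.101, adjusted p = 7.72e-44) in the authors' deposited DND-41 table. RELN, the ligand itself and named after its values were seen, had 0 counts in all 4 MOLT-4 libraries. APLP2, an amyloid precursor relative, fell by 0.77, and the signalling genes AKT1 and PIK3R1 fell by 0.44 and 0.46 on the log2 scale (edgeR adjusted p of 5.33e-13 or less). APLP1, another amyloid precursor relative of neurons, likewise named after its values were seen, had 22 and 18 counts with ACBI-1, against 1 and 1 with DMSO (4.07, SE 0.657, edgeR adjusted p = 9.2e-07). It was the 1 gene of this list with a log2 fold change above that of DAB1 in MOLT-4. APLP2 has -0.53, AKT1 -0.31, PIK3R1 -0.26 and APLP1 1.64 in the authors' deposited DND-41 table.

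Of the 22 neuron markers 4 were tested in MOLT-4, and 2 rose, 1 fell and 1 did not pass (3 and 1 under total-count scaling). MAPT, which encodes the axonal microtubule protein tau, rose to 312 and 313 counts with ACBI-1, against 67 and 58 with DMSO (log2 fold change 2.22, SE 0.131, edgeR adjusted p = 7.21e-19). INA, the neurofilament protein internexin, fell to 70 and 83 counts with ACBI-1, against 308 and 329 with DMSO (-2.15, edgeR adjusted p = 4.65e-19). In DND-41, MAPT had 66 and 228 counts in the libraries labelled ACBI-1, against 69 and 243 in those labelled DMSO, and 1.65 (SE 0.257, adjusted p = 1.94e-09) in the authors' deposited table.

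Of 19 genes of REST and its corepressors all were tested, and 11 rose, 4 fell and 4 did not pass (14 and 4 under total-count scaling), with a median log2 fold change of 0.12. REST itself was at 1909 and 2027 counts with ACBI-1, against 1709 and 1680 with DMSO (log2 fold change 0.12, edgeR adjusted p = 0.0237). That call was kept in 3 of the alternative runs and lost in 6, DESeq2 (0.14) among them. The log2 fold change ran from 0.08 to 0.24 over the runs. PHF21A, a histone reader of the LSD1 corepressor complex, rose to 1472 and 1461 counts with ACBI-1, against 652 and 592 with DMSO (1.14, edgeR adjusted p = 6.15e-21). CTDSPL, a phosphatase that REST recruits, rose by 0.71, RCOR3 by 0.58 and HMG20B by 0.45 on the log2 scale (edgeR adjusted p of 1.29e-11 or less). The transcripts of the drug's targets were not lower by the test, with SMARCA2 at -0.06 (edgeR adjusted p = 0.439, and 0.05 under total-count scaling) and SMARCA4 at 0.26 (edgeR adjusted p = 3.09e-08). PBRM1 stood at 0.11 (edgeR adjusted p = 0.00736).

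**Figure D4:**
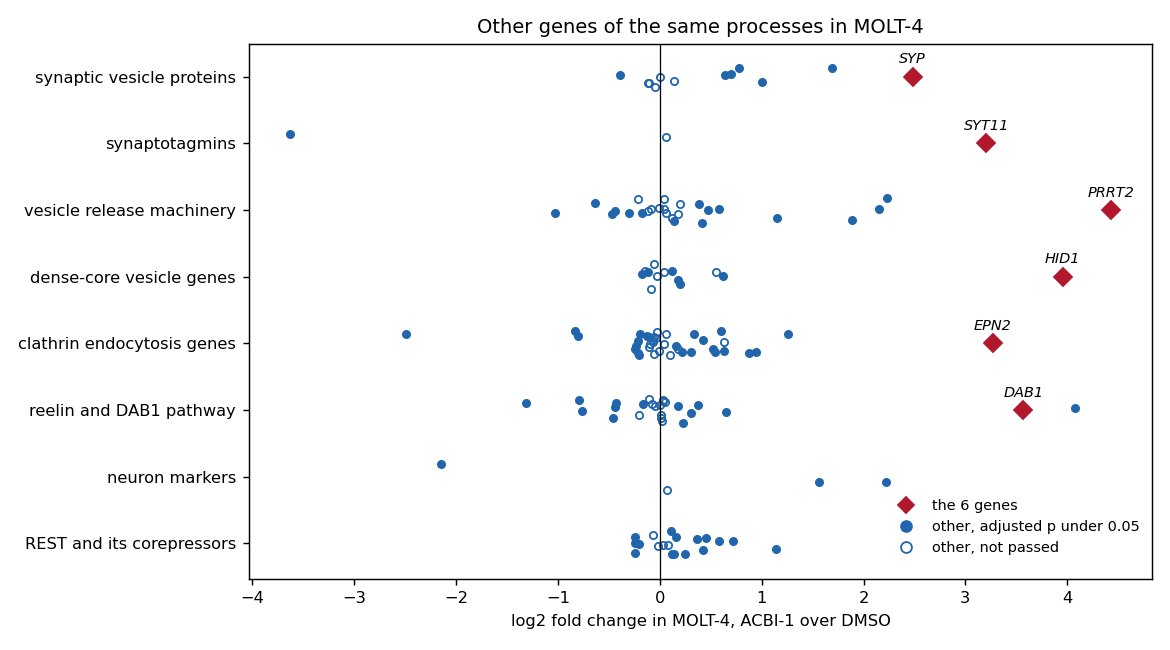
Log2 fold change in MOLT-4, ACBI-1 over DMSO, of the 6 genes (diamonds) and of the other tested genes of each list (filled circles passed the edgeR test at an adjusted p under 0.05, open circles did not). Most other genes lie near 0, and SYP, SYT11, PRRT2, HID1 and EPN2 lie right of every other gene of their list, while APLP1, at 4.07, lies right of DAB1. The 6 genes were chosen for their rise, so nothing is read from their place.

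The genes whose pattern over the 8 libraries was most like each of the 6 were found by the root mean square difference of log2(CPM + 0.5) after centring each gene, among 11648 protein-coding genes with at least 1 CPM in 2 libraries. DAB1 and EPN2 were nearest to each other, at 0.205 log2 units, and GPC1, a heparan sulphate proteoglycan gene, was next for both, at 0.444 and 0.332. The third was PTK2, the focal adhesion kinase (0.456), for DAB1 and TIMP3, a metalloproteinase inhibitor (0.362), for EPN2. SYP was nearest to TBC1D2 (0.183), ID3 (0.261) and CCDC121 (0.264). HID1 was nearest to ABLIM1 (0.277), NOG (0.295) and GPR162 (0.307). PRRT2 was nearest to CEP112 (0.459), ENHO (0.540) and DIRAS2 (0.541), and SYT11 to PLXDC1 (0.535), GSTA4 (0.573) and TRIB1 (0.719). Among the 6 genes themselves SYP and EPN2 were the farthest apart, at 1.95. The patterns share the same libraries and the split of DND-41 by number, and all these genes were higher in MOLT-4 with ACBI-1, from 2.09 for ID3 to 4.44 for PLXDC1 on the log2 scale. They were matched to genes chosen for their rise, so this follows from the matching and nothing is read from it. DAB1 and EPN2 were at 0.180 CPM or less in every DND-41 library, so the added 0.5 CPM made their values there nearly equal. CPM were scaled within a line, while the centring took both lines together.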

How the data were processed

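Total RNA of 8 libraries was sequenced, strand-specific per the labels. Per the submitters' processing notes, STAR 2.5.2a, featureCounts, DESeq2 1.12.4 and hg19 were used; the annotation release, strand setting and handling of reads mapping to several places are not given in the sources used here. The authors deposited raw counts per gene, 1 table per line. The authors also deposited, per line, a table of log2 fold changes with standard errors, p-values and adjusted p-values, a Wald score, and a mean normalized signal (mean count after size factors). In MOLT-4 the deposited count columns end in "redo", a suffix that no source used here explains; 0 columns were left unassigned.

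Counts were tested per line with edgeR 4.0.16 in R 4.3.3 (filterByExpr, TMM, quasi-likelihood F-test, 2-sided, Benjamini-Hochberg over all genes tested, threshold 0.05). The SE is the log2 fold change over the root of F. CPM are scaled within a line, so levels were not tested across lines. Alternatives were total-count scaling, DESeq2 1.42.0, no low-count filter, the replicate number as a block, a spread shared by both lines, and leaving out each library. GENCODE 29 held 52526 of 63677 identifiers and gave exon lengths and neighbours; it may differ from the annotation counted. The steps were tested on simulated counts with 200 changed genes, far fewer than the 8533 called in MOLT-4. That setting does not cover so broad a change.

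The 6 genes and all lists were chosen with earlier results of these data known. Named were the 6 genes, REST, drug targets, neighbours and overlapping genes, the 3 genes most alike in pattern, and per list up to 4 genes with the smallest p past the threshold and at least 1 CPM in the higher group; others are said to be named after their values were seen. Depth bounds counting error only. Results for some genes are not reported here.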

Additional observations from a re-analysis of the deposited data

How the results depend on the processing

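With 2 libraries per group, and 13 and 21 counts behind their DMSO values in MOLT-4, the folds of PRRT2 and HID1 had the largest SEs of the 6 genes. The 6 genes stayed higher in MOLT-4 under every alternative run, with log2 fold changes of 3.14 to 3.32 (SYT11), 2.38 to 2.60 (SYP), 3.97 to 5.11 (PRRT2), 3.18 to 4.09 (DAB1), 3.76 to 4.17 (HID1) and 3.06 to 3.50 (EPN2). With the spread shared with DND-41, 544 genes were called in MOLT-4 in place of 8533, and the called genes per list were 2 synaptic vesicle, 2 release, 1 dense-core, 2 clathrin, 0 reelin, 1 neuron and 1 REST gene; by the alternative's own construction the split of DND-41 enters that spread. Without the low-count filter 3 synaptic vesicle and 2 dense-core genes were called, and with DESeq2 1 dense-core gene. Leaving out 1 library at a time gave 6888 to 7123 genes called in MOLT-4, and per list 4 to 7 synaptic vesicle, 12 to 15 release, 2 to 3 dense-core, 17 to 20 clathrin, 10 to 13 reelin, 2 to 3 neuron and 12 to 14 REST genes. Of 37 named genes called in MOLT-4, 36 kept the call with total-count scaling, 32 with DESeq2, 32 without the filter, 33 to 34 with a library left out and 10 with the shared spread. The replicate numbers are shared numbers only and do not pair the MOLT-4 libraries (correlation of same-number deviations 0.00928), and there the block gave 8581 calls and changed no list's count; in DND-41 (0.849) the replicate block gave 1349 calls in place of 0, 777 higher and 572 lower as labelled. As labelled, PRRT2 in DND-41 turned to 0.0106 with total-count scaling and 0.00302 with the replicate block. Leaving out 1 library gave -0.276 to 0.306 for PRRT2, -1.94 to 1.54 for SYP, -3.07 to 2.91 for SYT11 and -2.36 to 0.98 for HID1 in DND-41. In MOLT-4, EPN1 turned to 0.0664 and SMARCA2 to 0.0544 with total-count scaling; with a library left out EPN1 ran from -0.138 to 0.0307 and SYT15 from -0.0263 to 0.151. The cause of these moves was not tested.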
